A study of Mus musculus with 6 samples.

Results

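The genes described here encode 9 RNA-binding proteins that set how long cytokine messages last. They were measured in the mouse macrophage line RAW264.7. They comprise the Regnase endonucleases (Zc3h12a, Zc3h12c and Zc3h12d), the tristetraprolin family (Zfp36, Zfp36l1 and Zfp36l2), the Roquins (Rc3h1 and Rc3h2) and the stabilising protein HuR (Elavl1). They are 9 of 55536 annotated genes and were taken by name, through 29 transcript rows, with the contrast of Ti with PBS already known, so their values in that contrast are descriptions and carry no test. All 9 passed the filter on low values and are among 15376 genes tested. The series has 6 total-RNA libraries, 3 from cells labelled Ctrl and given PBS and 3 from cells given titanium (Ti) particles, wear debris of the kind that metal implants shed. Every library comes from the same line, whose background strain is labelled C57BL/6, and the labels name no genetic change. Neither particle dose nor duration of exposure is stated in the labels. The labels do not say that replicates were separate cultures, so errors measure the spread between these libraries, which may be technical.

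Tristetraprolin and its relatives bind AU-rich elements in the 3′ untranslated region of messages such as that of Tnf and bring in the CCR4-NOT deadenylase, which shortens the poly(A) tail before decapping or exosome decay. Roquins and Regnase-1 instead recognise short stem-loops whose loop reads pyrimidine, purine, pyrimidine; Roquin recruits the deadenylase, and Regnase-1 cuts the message itself. HuR competes for AU-rich elements and protects the message. In macrophages these proteins limit cytokine output after an inflammatory signal, and the genes for Regnase-1 and tristetraprolin are themselves induced early by such signals.

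Letters of both kinds were searched for in these genes and in their known targets, and a few matches are shown because each kind is what 1 of the 2 decay routes is known to read. Tnf, Rel, Tfrc, Rc3h2 and Zc3h12c held both kinds. Letters were read from GENCODE vM21 transcripts on GRCm38, 5′ to 3′ and in the sense of the message, with T for U. In the first set capitals mark the arms of a perfect stem of 6 base pairs around a loop of 3 bases, each loop being pyrimidine, purine, pyrimidine. Zc3h12a itself holds 3 such stems at chr4:125119062-125119090, chr4:125118880-125118908 and chr4:125118656-125118684. The others lie at chr7:30428395-30428423 and chr7:30428423-30428451 (Nfkbid), chr16:55812607-55812635 (Nfkbiz), chr17:35199578-35199606 (Tnf) and chr2:37373802-37373830 (Rc3h2). Nfkbid is on the plus strand and the other 4 genes are on the minus strand.
Zc3h12a, upstream stem: ccctgttGATACAcatTGTATCtctgtca
Zc3h12a, middle stem: gctagttAGGCACcatGTGCCTgctctct
Zc3h12a, downstream stem: ggcgagaTTTAAAtatTTTAAAtgaaaaa
Nfkbid, first stem: tctaggtGATTTCtgtGAAATCgagccca
Nfkbid, second stem: acttgatTGTTTCtgtGAAACActctaga
Nfkbiz stem: tgtaagtTGTTTCtatGAAACAaacccat
Tnf stem: cagacatGTTTTCtgtGAAAACggagctg
Rc3h2 stem: tttaattAACTTCtgtGAAGTTgtttact

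In the second set capitals mark the AU-rich heptamer TATTTAT, which the zinc fingers of the tristetraprolin family bind in its RNA form. These sites are on the minus strand at chr17:35199678-35199706 (Tnf), chr2:129364806-129364834 (Il1b), chr7:28376951-28376979 (Zfp36), chr12:80108422-80108450 (Zfp36l1) and chr17:84184914-84184942 (Zfp36l2).
Tnf heptamers: TATTTATTATTTATTTATTATTTATTTAT
Il1b heptamers: ccacttaccTATTTATTTATgTATTTATt
Zfp36 heptamer: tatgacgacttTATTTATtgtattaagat
Zfp36l1 heptamer: ttatcaaaacgTATTTATtgccaaactat
Zfp36l2 heptamer: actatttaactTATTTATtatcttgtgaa

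Among the 9 genes, 6 held at least 1 heptamer in the 3′ untranslated region of their most abundant coding transcript and 3 held a stem. Zfp36, Zfp36l1 and Zfp36l2 had 3 heptamers each and no stem, whereas Zc3h12a had 3 stems and no heptamer. Elavl1 had 8 heptamers, Rc3h2 had 3 and Zc3h12c had 2. Of 11126 tested coding genes with such a region, 27.4% held a heptamer and 8.8% a stem. Rc3h1 was read from Rc3h1-201, whose region is 20 bases long. Among 22 known targets of either route that are not members, 17 held a heptamer and 7 a stem. Genes with a heptamer had longer regions (median 1951 bases, against 696 without), and a match is a description of letters, not a measured binding site.

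Values are CPM, normalised counts scaled to a common library total, with TMM-scaled library sizes, from counts that were rescaled to exon length; the rescaled totals ran from 37685950 to 60242851 per library. A rescaled count of 3, the level that a count of 0 allows, was 0.0498 to 0.0796 CPM before TMM scaling. Macrophage markers were present: 9 of 10 were tested and summed to 5618 to 7471 CPM in control and 6968 to 8797 CPM with Ti, with Mrc1 listed at 0. Lyz2 alone was at 3745 to 5363 CPM, so the sum says little of the others. Of the 9 tested, 5 were higher and 4 lower with Ti. In replicates 1, 2 and 3 Csf1r was at 472, 1462 and 1598 CPM in control and at 1387, 144 and 435 CPM with Ti. Itgam ran from 11.9 to 112 CPM, both with Ti. All 6 lymphocyte markers were at or under 3 rescaled counts in every library. Of 6 fibroblast and osteoblast markers 1, Runx2, was tested, and the list summed to 3.38 to 5.6 CPM in control and 5.03 to 9.53 CPM with Ti. Of 6 epithelial and endothelial markers 0 were tested, with sums of at most 0.24 and 0.458 CPM. In bulk RNA, a change in the share of cells and a change in RNA per cell cannot be told apart.

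Zc3h12a, which encodes Regnase-1, was the gene of the 9 that stood apart between the groups (GRCm38 chromosome 4, 125118423 to 125127840, minus strand). The control libraries, in the order of replicates 1, 2 and 3, had 6.42, 7.56 and 5.97 CPM, and those with Ti, in the same order as throughout, had 25.2, 19.4 and 21.1 CPM. The lowest Ti library was above the highest control library. Its mean was 6.65 ± 0.817 CPM in control and 21.9 ± 2.99 CPM with Ti (SD, n = 3 per group). The fitted log2 fold change was 1.72 ± 0.18 (SE), or 3.3-fold. Within the libraries that share a replicate number the log2 ratio was 1.97, 1.36 and 1.82. Each fit on 5 of the 6 libraries placed the fold change between 1.61 and 1.82 (log2). Its coding transcript carried 98.4% to 99.6% of the counts in every library.

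The other Regnase genes were scarce and uneven. Zc3h12c, for Regnase-3 (chromosome 9, 52111344 to 52168572, minus strand), was at 2.24, 2.62 and 4.84 CPM in control and 2.08, 2.92 and 6.01 CPM with Ti, with replicate 3 the highest in each group. Zc3h12d, for Regnase-4 (chromosome 10, 7832470 to 7870396, plus strand), was at 3.67, 3.17 and 3.36 CPM in control and at 2.6, 0.268 and 4.22 CPM with Ti. The controls lay close together, and Ti replicate 2 stood far below every other library at 10 rescaled counts. The log2 fold change of Zc3h12c was 0.19 ± 0.50 and that of Zc3h12d was -0.52 ± 0.81. Without Ti replicate 2 the latter was 0.00, and without Ti replicate 3 it was -1.23. A fit blocked on replicate number gave -1.03, and voom gave -1.06. Zc3h12c changed sign without Ti replicate 3 (-0.37) and without control replicate 1 (-0.02), and was 0.60 without control replicate 3 and 0.47 without Ti replicate 1.

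**Figure D1:**
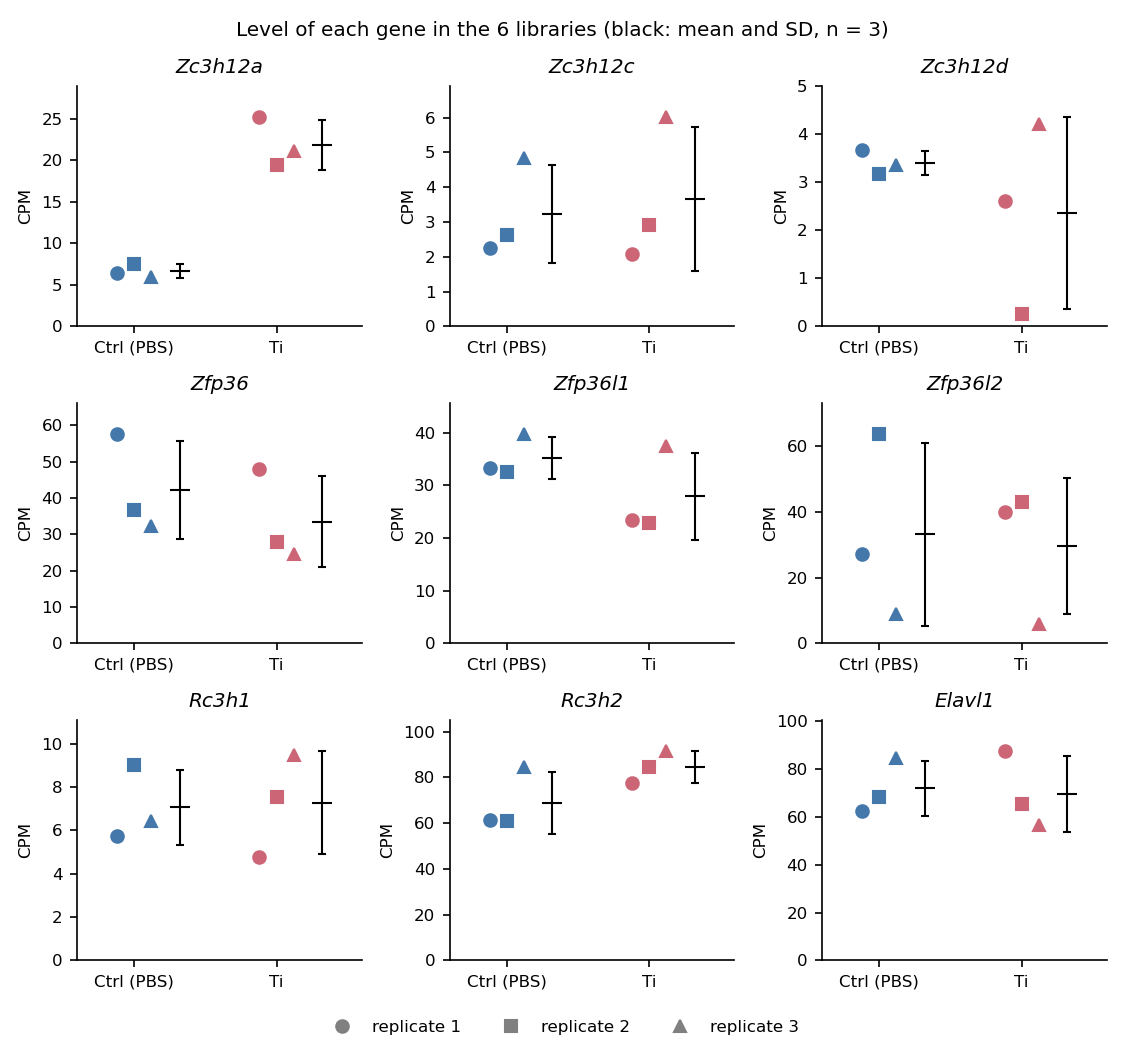
Level of each gene in CPM (vertical axes start at 0) in the control (blue) and Ti (red) libraries, with marker shape for the replicate number and black bars for the mean and SD of 3 libraries. In Zc3h12a alone among these 9 genes all Ti points (19.4 to 25.2) lie above all control points (5.97 to 7.56), and in Zfp36l2 the triangles of replicate 3 are lowest in both groups.

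Zfp36, which encodes tristetraprolin, had overlapping groups (chromosome 7, 28376784 to 28380253, minus strand). It was at 57.5, 36.7 and 32.3 CPM in control and at 47.9, 27.9 and 24.6 CPM with Ti, and replicate 1 was the highest of each group. Its mean was 42.2 ± 13.5 CPM in control and 33.5 ± 12.6 CPM with Ti (SD, n = 3 per group), and the fitted log2 fold change was -0.33 ± 0.34. Leaving out replicate 1 of the controls gave -0.05, and leaving out that of the Ti libraries gave -0.69. Within each replicate number the Ti library was the lower, with log2 ratios of -0.26, -0.40 and -0.39. Of all genes tested, 17.3% were lower in Ti within all 3 numbers.

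Zfp36l1, a tristetraprolin relative known for its part in cell-cycle exit and lymphocyte development (chromosome 12, 80107754 to 80113013, minus strand), was at 33.3, 32.5 and 39.7 CPM in control. With Ti it was at 23.4, 22.8 and 37.4 CPM, so replicates 1 and 2 were below every control library and replicate 3 was not. Within replicate numbers 1, 2 and 3 the log2 ratio was -0.51, -0.51 and -0.09, lower with Ti in each. Its log2 fold change was -0.33 ± 0.23, and -0.60 without Ti replicate 3. Zfp36l2, a further relative (chromosome 17, 84183931 to 84187947, minus strand), was at 27.1, 63.5 and 8.94 CPM in control and at 40, 42.9 and 5.97 CPM with Ti. The libraries numbered 3 were the lowest of both groups, and the highest library was 10.6 times the lowest. The SD of its log2 values within groups was 1.47, above that of 98.4% of tested genes. Its log2 fold change of -0.16 ± 0.91 turned to 0.71 when control replicate 2 was left out and to 0.32 when Ti replicate 3 was. It reached -0.61 when control replicate 3 was left out.

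The Roquins differed in level more than between groups. Rc3h1 (chromosome 1, 160906418 to 160974978, plus strand) was at 5.74, 9.03 and 6.45 CPM in control and at 4.76, 7.55 and 9.5 CPM with Ti. Rc3h2 (chromosome 2, 37370069 to 37422903, minus strand) was at 61.3, 60.8 and 84.6 CPM in control and at 77.4, 84.6 and 91.3 CPM with Ti. The groups of each gene overlapped, Rc3h2 through control replicate 3. Their log2 fold changes were 0.04 ± 0.32 and 0.29 ± 0.16. That of Rc3h1 had no settled sign: leaving out Ti replicate 3 gave -0.20, and leaving out control replicate 1 or 3 gave -0.09 or -0.02. Leaving out Ti replicate 1 gave 0.27. Rc3h2 was higher with Ti within each replicate number, by log2 ratios of 0.34, 0.48 and 0.11, as were 18.3% of all genes tested.

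Elavl1, for HuR (chromosome 8, 4285382 to 4325413, minus strand), was at 62.7, 68.5 and 84.8 CPM in control and at 87.5, 65.4 and 56.5 CPM with Ti. The Ti libraries spanned both the highest and the lowest value, and the log2 fold change was -0.04 ± 0.20. Leaving out replicate 3 of either group turned it to 0.09, and leaving out Ti replicate 1 gave -0.24.

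**Figure D2:**
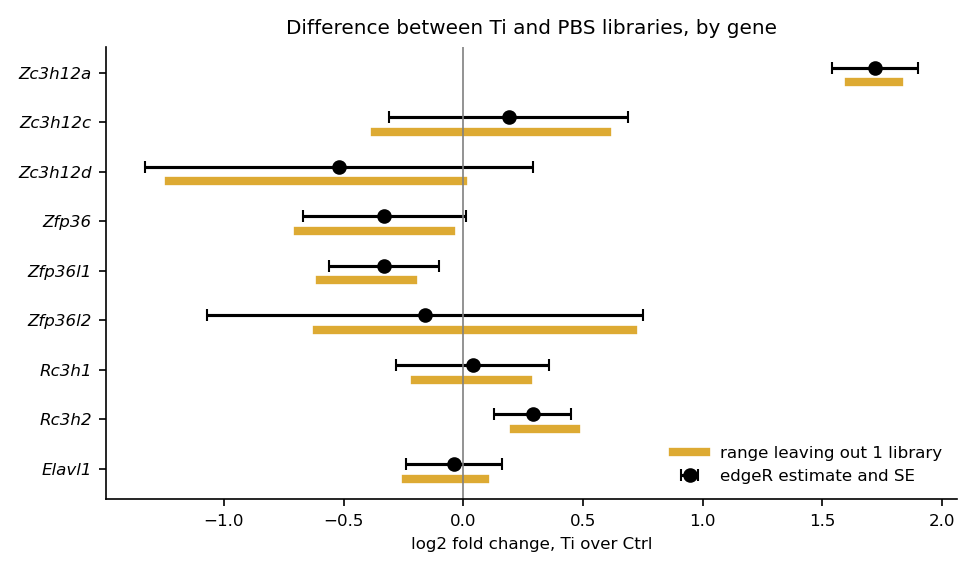
Log2 fold change of Ti over control for each gene, as the edgeR estimate with its SE (black) and as the range over the 6 fits that leave out 1 library (yellow). Zc3h12a sits at 1.72 with a range of 1.61 to 1.82, and the ranges of Zc3h12c, Zfp36l2, Rc3h1 and Elavl1 cross 0, while that of Zc3h12d (-1.23 to 0.00) reaches it.

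Over the 9 genes, 4 had a positive and 5 a negative log2 fold change, with a median of -0.04, beside 0.01 over all 15376 genes tested. In edgeR's quasi-likelihood fit over all genes 0 of the 9 passed an adjusted p of 0.05 (Benjamini-Hochberg), where 0.026% of all genes did (0.013% higher and 0.013% lower). At an unadjusted p under 0.05 it was 1 of 9, Zc3h12a, against 6.76% of all genes. DESeq2 called 1 of 9, again Zc3h12a, against 1.91% (1.07% higher and 0.844% lower). The voom fit called 0, against 0.065% (0.0325% in each direction). The groups did not overlap in 1 of 9, against 13.3% of all genes (6.63% higher and 6.71% lower). The contrast was known when the genes were chosen, so nothing is read from these counts.

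Levels can be compared between genes only per length, here as CPM per kilobase of exon. On that scale Zfp36 (17.1 ± 5.46 in control, SD, n = 3), Elavl1 (15.7 ± 4.35), Rc3h2 (12.1 ± 2.59) and Zfp36l1 (11.8 ± 1.32) were the most abundant, and their control ranges overlapped. Zfp36l2 (9.41 ± 7.88) could not be placed against these because of its spread. Zc3h12a followed at 2.5 ± 0.292, then Rc3h1 at 1.58 ± 0.388, Zc3h12d at 0.831 ± 0.0637 and Zc3h12c at 0.478 ± 0.208. With Ti Zc3h12a was at 8.07 ± 1.09, near Zfp36l1 at 9.33 ± 2.76 and Zfp36l2 at 8.4 ± 5.82, while Zfp36 was at 13.6 ± 5.11. Its Ti range of 7.16 to 9.27 overlapped that of Zfp36l1, 7.64 to 12.5.

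Transcript models differed within several of these genes. Zc3h12c has 2 coding models with different first exons and 3′ ends; Zc3h12c-202 starts in the exon at 52168502 to 52168572 and Zc3h12c-201 in the exon at 52168031 to 52168111, and the latter ends 641 bases short at the 3′ end. All counts were on Zc3h12c-202 in the 3 control libraries and in Ti replicate 3. In Ti replicates 1 and 2 Zc3h12c-201 carried 94.1% and 91.8%, from 91.7 and 100.2 rescaled counts, while the gene's total was 97 and 109. This is an assignment by the authors' transcript estimation at low counts, and the Ti libraries disagreed with each other.

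In Zfp36 nearly all counts were on the single-exon model Zfp36-202, which spans the intron of the spliced Zfp36-201. The spliced model was listed at 0.8 rescaled counts in all 6 libraries. Its share of 0.0219% to 0.0773% therefore varied only with the gene's total. The 2 models share most of their sequence, so spliced and unspliced message cannot be told apart from these values. In Rc3h1 the model with the long 3′ untranslated region, Rc3h1-202, held 47.8%, 38.1% and 38.4% in control and 55%, 36.2% and 13.7% with Ti. The remainder was mostly on Rc3h1-201, which ends 7161 bases earlier, and Ti replicate 3 was the library that stood apart. Models with no full coding frame, mainly retained introns, held 19.9% to 22.4% of Rc3h2 in control and 18% to 18.4% with Ti. In Zc3h12a they held 0.86% to 1.64% and 0.37% to 0.487%, and in Elavl1 11.8% to 15.6% and 11.2% to 16.5%. The shares of other genes were not compared, so nothing is read from these ranges.

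**Figure D3:**
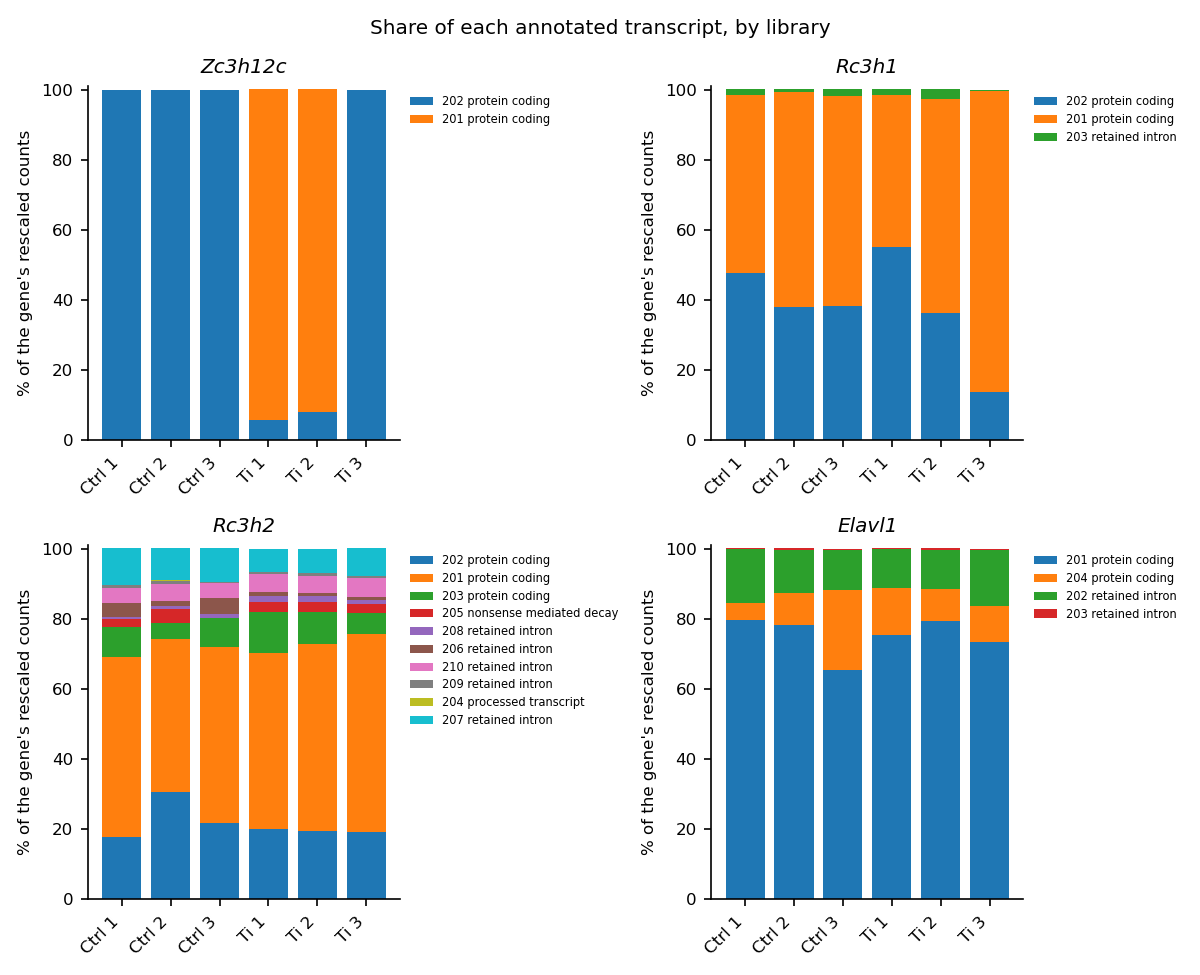
Share of each gene's rescaled counts (vertical axis, percent, from 0 to 100) on each annotated transcript in the 6 libraries, for Zc3h12c, Rc3h1, Rc3h2 and Elavl1. Zc3h12c is on model 202 in the control libraries and Ti replicate 3 and mostly on model 201 in Ti replicates 1 and 2 (94.1% and 91.8%).

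The decay genes, for enzymes together with their subunits and adaptors, had no call in edgeR. Of 44 deadenylation, decapping and exosome genes, all tested, 18 were higher and 26 lower with a median log2 fold change of -0.03, and 0 passed edgeR's adjusted p of 0.05; 1 was under an unadjusted 0.05 (6.76% of all genes) and DESeq2 called the same 1 (1.91% of all genes), Tob2. A count of 1 in 44 is below the first of these shares and near the second, so nothing is read from it. Tob2, an adaptor that joins RNA-binding proteins and poly(A)-binding protein to the CCR4-NOT deadenylase, was at 17.5, 19.6 and 25.6 CPM in control and at 49.5, 107 and 107 CPM with Ti. All Ti libraries were above all control libraries, with a log2 fold change of 2.07 ± 0.34 (edgeR adjusted p = 0.218; DESeq2 adjusted p = 5.75e-06, the other alternatives 0.129 to 0.554). Cnot7, a deadenylase subunit, had 0.19 ± 0.11, Cnot3, a scaffold of the same complex, had -0.41 ± 0.29, and Btg2, an antiproliferative adaptor, had -0.33 ± 0.22.

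Among decapping genes Dcp1a, a cofactor of the decapping enzyme, was at 8.64, 8.93 and 26 CPM in control and at 8.11, 5.65 and 5.45 CPM with Ti. Its log2 fold change of -1.18 ± 0.49 was -0.45 without control replicate 3. Ddx6, a helicase of decapping complexes, had -0.37 ± 0.16, Eif4enif1, which links cap binding to decay, had -0.16 ± 0.08, and Dcp2, the decapping enzyme, had 0.17 ± 0.11. Among exosome genes Exosc7 had -1.11 ± 0.50, Ttc37 0.21 ± 0.10, Skiv2l -0.17 ± 0.15 and Exosc9 0.19 ± 0.19.

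Other RNA-binding proteins of the pathway were measured for 12 of 17 genes, 6 higher and 6 lower; 0 passed edgeR's adjusted p (0.026% of all genes), 0 were under an unadjusted 0.05 (6.76%) and DESeq2 called 0 (1.91%). Tia1, a translational silencer that binds AU-rich elements, had a log2 fold change of 0.37 ± 0.16 and its relative Tial1 -0.55 ± 0.34. Arid5a, which stabilises Il6 message against Regnase-1, was at 0.375, 2.52 and 3.04 CPM in control and 3.48, 2.3 and 6.63 CPM with Ti, so the groups overlapped. Celf1 had 0.12 ± 0.10. Upf1, a helicase that works with Regnase-1, is listed at 0 in all 6 libraries, although every cell uses it, so a 0 in these tables can be a failed estimate. Kinases and protein-turnover factors, 17 of 18 tested, had 11 higher and 6 lower; 0 passed in edgeR, 0 were under an unadjusted 0.05 and DESeq2 called 0. With so few genes a count of 0 is near those shares over all genes. Ikbkg, a subunit of the kinase complex that marks Regnase-1 for destruction, was at 14.7, 16.4 and 20.1 CPM in control and at 36.2, 35.4 and 15.6 CPM with Ti, where replicate 3 stood with the controls. Ppp2ca, a phosphatase catalytic subunit, had 0.19 ± 0.09, Ywhaz, a 14-3-3 protein, 0.27 ± 0.14 and Card9, an adaptor of innate signalling, -0.27 ± 0.18.

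Known targets of the 2 routes were mostly higher with Ti. Of 22 targets that are not members 17 were tested, 15 of them higher and 2 lower, with a median log2 fold change of 0.87; over all genes tested the median was 0.01. By edgeR's adjusted p 0 passed. At an unadjusted p under 0.05 there were 8 higher and 1 lower (3.42% and 3.34% of all genes), and DESeq2 called 5, all higher (1.07% of all genes). The list draws on known cytokine genes that the series' earlier results already showed, so it is no independent evidence of a direction. Groups did not overlap for 10 of the 17 with Ti higher (6.63% of all genes) and for 1 with Ti lower (6.71%). The 2 lower targets were Icos, at -0.71 ± 0.26 (SE) with groups apart, and Tnfrsf4, at -0.86 ± 1.08 with groups overlapping. Both were scarce, with control means of 0.96 and 0.317 CPM.

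Tnf, the classical tristetraprolin target, was at 126, 115 and 137 CPM in control and at 255, 231 and 330 CPM with Ti. Ccl2, a monocyte chemoattractant, was at 11.9, 9.43 and 5.61 CPM against 30.5, 25.8 and 51.3 CPM, and Ccl3, another chemokine, at 46.7, 46.6 and 69.7 against 132, 135 and 327 CPM. In all 3 of these genes Ti replicate 3 was the highest library. Ier3, an early response gene, was at 46.3, 38.2 and 36.6 CPM in control and 64.6, 56.9 and 104 CPM with Ti. Rel, an NF-kB subunit and Regnase-1 target, had a log2 fold change of 0.55 ± 0.13 (edgeR adjusted p = 0.425). Il1a was at 0.109, 0 and 0.0479 CPM in control and 0.772, 0.857 and 4.78 CPM with Ti, and Il1b at 0.422, 0.0748 and 0 against 2.19, 2.44 and 13.6 CPM. The fitted changes of these interleukin-1 genes rest on few control counts and are no bound. That of Il1a, 5.15, became 3.77 when Ti replicate 3 was left out and 6.30 when control replicate 1 was. That of Il1b, 5.07, became 3.69 and 7.26 likewise. Il12b and Cxcl1 are listed at 0 in every library.

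**Figure D4:**
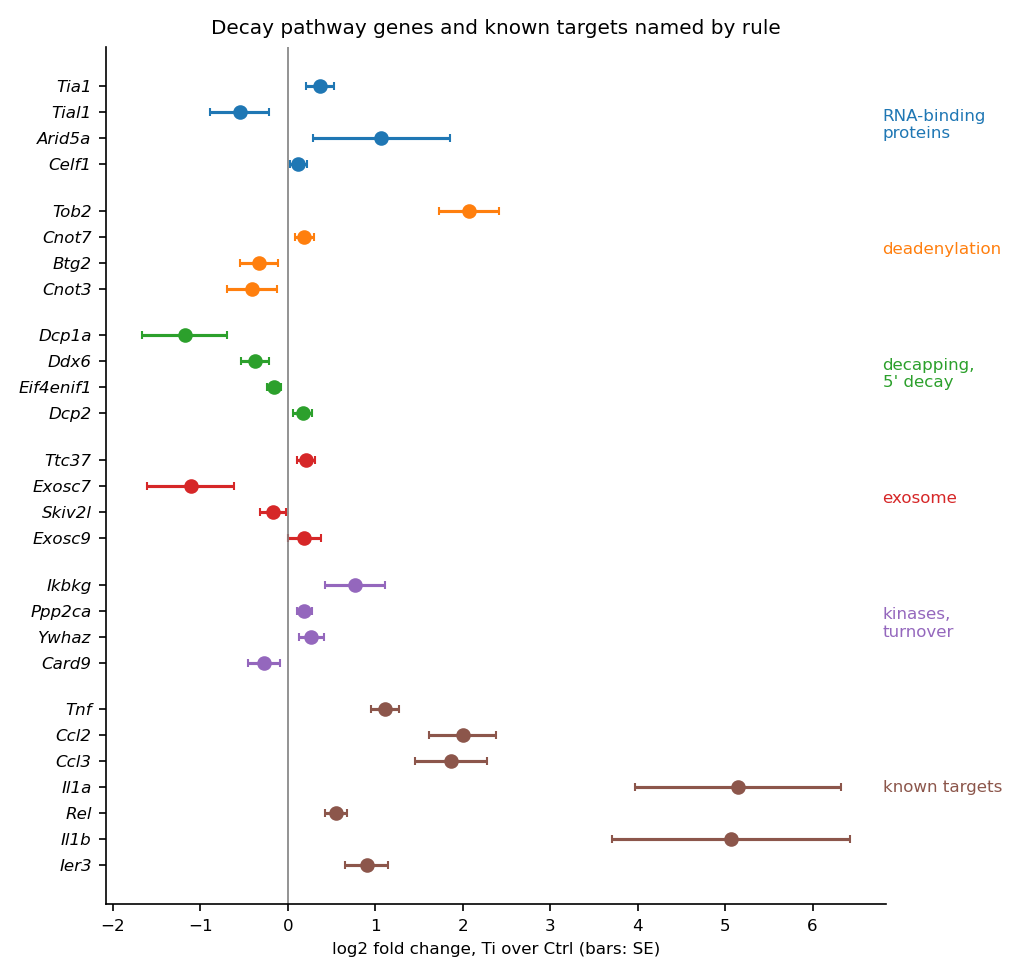
Log2 fold change of Ti over control with its SE for 27 pathway genes taken by a fixed rule (the smallest p-values of each list), grouped by role. Tob2 (2.07), an adaptor, stands apart among the decay genes. The 7 known targets shown lie between 0.55 and 5.15, where the top value, Il1a, was 3.77 without Ti replicate 3. The lower targets Icos and Tnfrsf4 were not among those taken by the rule.

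Heptamer content was then set against the change of all tested genes whose 3′ untranslated region was 1000 to 3000 bases long. The median log2 fold change was -0.02 for 2517 genes with no heptamer (47% higher in Ti), 0.01 for 998 genes with 1, 0.05 for 307 genes with 2 and 0.06 for 153 genes with 3 or more (60.1% higher). Quartiles were -0.22 and 0.18 with no heptamer and -0.08 and 0.32 with 3 or more. The difference between the last and the first group of genes was 0.08, and 0.05 to 0.11 with 1 library left out. Median lengths were 1610 and 2075 bases in those groups, and the part of length in the difference was not tested. Stems were compared over regions of any length, and the medians were close. The median log2 fold change was -0.009 for 10146 genes with no stem (48.7% higher in Ti). It was 0.007 for 980 genes with 1 or more stems (51.5% higher).

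**Figure D5:**
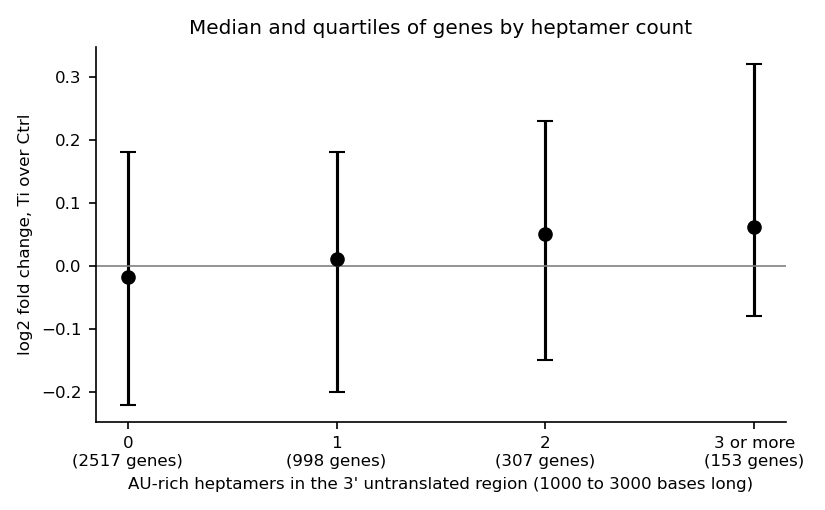
Median (point) and quartiles (bars) of the log2 fold change, Ti over control, of tested genes by the number of TATTTAT heptamers in a 3′ untranslated region of 1000 to 3000 bases. The median goes from -0.02 with no heptamer to 0.06 with 3 or more.

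Genes most like Zc3h12a in pattern over the 6 libraries, by Pearson's r of log2(CPM + 0.5) among 9705 genes of at least 5 CPM, were Dusp5 (r = 0.997), Actn1 (0.994) and Ehd1 (0.993). Dusp5, a phosphatase for ERK kinases, was at 3.33, 4.54 and 2.78 CPM in control and at 16.7, 11.9 and 13.5 CPM with Ti, with the same order of libraries within each group. Zfp36 was most like Ddx39b (r = 0.989), Lrp6 (0.985) and Hltf (0.983). Pearson's r takes no account of the size of a difference. Ddx39b (181 to 212 CPM) and Lrp6 (161 to 186 CPM) were nearly flat beside Zfp36 (24.6 to 57.5 CPM), while Hltf ran from 8.6 to 23.7 CPM. Such correlations are the extremes of many genes over 6 libraries that share 2 groups and, by number, a common deviation. They are given without a test.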

How the data were processed

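The authors deposited an estimated count for each of 187351 transcripts in each library, as whole numbers; per the submitters' processing notes, which list names without roles, HISAT2, StringTie and mm9 were used. No source here states how reads were counted. Of the transcripts 141862 match GENCODE vM21 (GRCm38), which gave names and coordinates, although the notes list mm9. The other 45489, assembled transcripts, were left out. They held 51.2% of the total in Ti replicate 1 and 36.9% to 40.5% in the other libraries. Any message of these genes assigned there is not counted. Low values rose with genomic span, so each value was multiplied by exon length over span and summed and rounded per gene. The correction is approximate. Genes were fitted with edgeR 4.0.16 (quasi-likelihood, TMM, filterByExpr) in R 4.3.3, with Benjamini-Hochberg adjustment; the SE is the log2 fold change over the square root of F. DESeq2 1.42.0 and limma 3.58.1 (voom) were alternatives.

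Same-numbered libraries deviated together (correlations over genes 0.11, 0.144 and 0.266, against -0.17 to 0.0402 for other pairs). This pairing was read from the data and not the labels. The main fit has no block and does not use the pairing, and the fit with the block is an alternative. No 2 libraries of 1 group agreed within sampling noise. The fits were tested on simulated data. Members, lists and alternatives were chosen with earlier results of these data known. Named by rule were the 9 genes, up to 4 genes with the smallest p of each list, and the 3 genes most like Zc3h12a and Zfp36; other genes named were chosen after their values were seen. Motifs, overlapping matches included, were searched on the sense strand of the most abundant coding transcript's 3′ untranslated region.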

Additional observations from a re-analysis of the deposited data

How the results depend on the processing

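Zc3h12a kept its direction in all 14 other fits (log2 fold change 1.61 to 1.82), as did Zfp36, Zfp36l1 and Rc3h2. The sign changed in 5 of 14 for Rc3h1, 4 for Elavl1, 2 for Zc3h12c, 2 for Zfp36l2 and 1 for Zc3h12d. From Zc3h12c-202 alone, its more abundant transcript, Zc3h12c had -0.51. Genes called higher and lower over the whole table (2 and 2) were 163 and 129 in DESeq2, 5 and 5 in voom, 0 and 0 in edgeR with the replicate block (775 and 665 at an unadjusted p under 0.05), 0 and 0 in edgeR without both libraries numbered 3 (750 and 679 likewise; added after seeing the data), 1 lower with no filter, and 1 to 8 higher and 0 to 7 lower with 1 library left out; the cause was not tested. With the replicate block Zc3h12a stayed at 1.72, Zc3h12d went from -0.52 to -1.03 and no call among the 9 genes changed. The median of the 9 genes was -0.224 to 0.056 with 1 library left out. That of the known targets was 0.814 to 1.033 likewise and 1.011 with a mean of at least 50 counts. That of the decay genes was -0.056 with unrescaled values. With 3 libraries a group and deposited values that are not plain counts, the depth behind a value is known only approximately.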
